A study of Mus musculus with 6 samples.

Results

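The data described here are the levels of 10 long non-coding RNAs with established names, Malat1, Neat1, Tug1, Miat, Kcnq1ot1, Norad, Sox2ot, Rmst, Pvt1 and Oip5os1, in RNA labelled as coming from adult mouse astrocytes. The genes were listed by name, in a list drawn up with earlier results of these data known, and no measured value entered the rule. Of 36210 gene rows in the deposited table, 8 carried a listed symbol. The other two, Norad and Oip5os1, stood under older clone names and were matched by their Entrez identifiers, so all 10 were measured. In the RefSeq annotation Malat1 and Neat1 lie on chromosome 19, Norad and Oip5os1 on chromosome 2, Sox2ot on 3, Miat on 5, Kcnq1ot1 on 7, Rmst on 10, Tug1 on 11 and Pvt1 on 15. All are annotated there as long non-coding. Both groups of mice were APP/PS1, a transgenic model of amyloid deposition, were 8 months old, and were injected into the peritoneum daily for 30 days. The first group (3 libraries) received 10 mg/kg AVE0991, a nonpeptide agonist of the receptor Mas, and the second (3 libraries) received 0.9% saline as vehicle. No untreated or wild-type animals are part of this comparison. The labels do not tie libraries to separate animals, and the spread behind each p-value is that between libraries, which may be technical. The labels do not say which promoter drives the transgenes.

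Long non-coding RNAs are transcribed and processed much like messenger RNAs but are not translated into known proteins. Some build nuclear bodies, some silence neighbouring genes from the allele that transcribes them, and some act in the cytoplasm by holding RNA-binding proteins or microRNAs. Many of those studied in brain differ sharply in level between neurons, glia and progenitors.

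Ribosomal RNA was depleted before sequencing, a preparation that does not require a poly(A) tail, and each library held 44583274 to 50066615 estimated counts on gene rows. Markers of astrocytes and of other brain cell types were present in every library. The 6 astrocyte markers summed to 2601 to 4083 CPM (counts scaled to a fixed library total) in AVE0991 libraries and 1985 to 2198 CPM in vehicle libraries. The 6 neuronal markers summed to 2740.3 to 3332 CPM in AVE0991 and 3065 to 3727 CPM in vehicle libraries. The 6 oligodendrocyte markers reached 5470.1 to 11782 CPM in AVE0991 and 3609 to 7876 CPM in vehicle libraries. Markers of cerebellar granule cells summed to 157 CPM in AVE0991 replicate 1, 1103 CPM in AVE0991 replicate 2 and 1120 CPM in AVE0991 replicate 3, and to 153 to 181 CPM in vehicle libraries. Summed markers of oligodendrocyte precursors were 82.9 to 94.8 CPM in AVE0991 and 96.6 to 99.5 CPM in vehicle libraries, and those of microglia 244 to 339 CPM in AVE0991 and 255 to 299.7 CPM in vehicle libraries. Endothelial markers summed to 24.1 to 81.5 CPM in AVE0991 and 37.9 to 85.3 CPM in vehicle libraries, and those of choroid plexus to 349.7 to 524 CPM in AVE0991 and 121 to 1342 CPM in vehicle libraries. All listed markers were detected in every library. EdgeR called 0 of them, against 0.864% of all tested genes, which does not mean equal levels. The median log2 fold change, AVE0991 over vehicle, was 0.66 for astrocyte and 2.75 for cerebellar granule cell markers. For the other cell types it lay between -0.68 (choroid plexus) and 0.09 (oligodendrocytes). In bulk RNA, fewer cells of a type and less RNA per cell cannot be told apart.

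All 10 RNAs had a lower estimate in AVE0991 than in vehicle libraries, with log2 fold changes of -0.27 to -1.14 and a median of -0.63. The median of all 20363 genes tested was -0.01, with 50.7% of them below 0; among 2351 tested long non-coding genes the median was -0.25, with 66.0% below 0. Tug1 was the member that passed the test across all genes, at an edgeR adjusted p of 0.0414. The other 9 did not pass at the threshold of 0.05. With 1 of 10 members called lower, the background was 0.83% of all tested genes called lower and 0.864% called in either direction. In 6 members, Malat1, Neat1, Tug1, Miat, Kcnq1ot1 and Pvt1, every AVE0991 library stood below every vehicle library. The same held for 16.3% of all tested genes and 20.5% of the 2351 tested long non-coding genes. Of all tested genes 30.6% were separate in either direction. In the other 4 members the groups overlapped. Set against the mean log2 CPM of vehicle libraries, the median member stood at -0.64, -0.47 and -0.66 in AVE0991 replicates 1, 2 and 3, against 0.13, -0.11 and -0.03 in vehicle replicates 1, 2 and 3. DESeq2 called 4 members lower, Tug1, Kcnq1ot1, Pvt1 and Neat1, with 6.5% of all genes called lower and 11.4% called in either direction. Limma-voom called 3, Tug1, Pvt1 and Neat1, with 3.78% of all genes called lower and 6.36% called in either direction. In the authors' deposited table, Tug1 (q = 2.15e-06), Kcnq1ot1 (q = 0.00494) and Pvt1 (q = 0.0129) had a q-value under 0.05. Of its 36065 gene rows, 2.74% had such a q-value and a negative fold change. That share is over more rows than the 20363 genes tested here, which passed a filter, so it is not on the same base as the other shares.

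**Figure D1:**
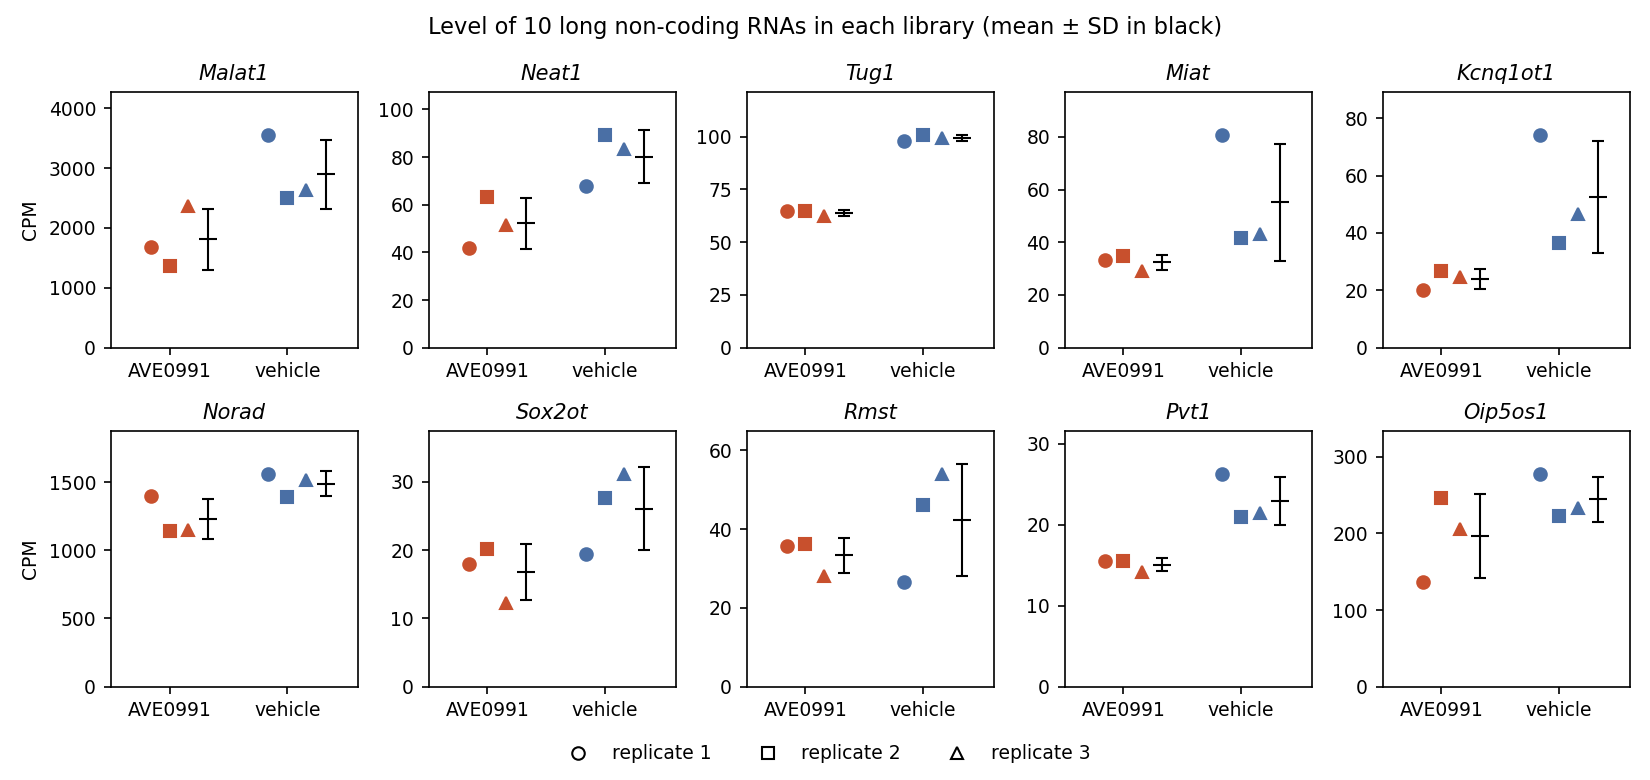
Level of each long non-coding RNA in CPM (vertical axes, each from 0) in the 3 AVE0991 and 3 vehicle libraries. Symbols mark the replicate number and black bars the mean ± SD. Tug1 shows 2 narrow groups, at 62.2 to 64.8 CPM in AVE0991 and 98.2 to 101 CPM in vehicle libraries, and for Miat and Kcnq1ot1 vehicle replicate 1 stands above the other libraries.

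Levels between genes are compared here on the deposited scale per length, whose values behave as FPKM although the header does not name the unit. Malat1 was the highest member, at 318 ± 90.9 FPKM in AVE0991 and 517 ± 81.0 FPKM in vehicle libraries (SD, n = 3 each), and ranked 2 among the tested long non-coding genes. Norad followed with 246 ± 36.1 FPKM in AVE0991 and 314 ± 15 FPKM in vehicle libraries, at rank 3. Their ranges overlapped in AVE0991 libraries and were separate in vehicle libraries. Oip5os1 came next, at 42.1 ± 8.61 FPKM in AVE0991 and 55.8 ± 6.90 FPKM in vehicle libraries, above the remaining members in every library. Rmst, Tug1, Neat1, Sox2ot, Pvt1 and Miat had group means between 5.39 and 24.1 FPKM in that order, and each neighbouring pair in it overlapped in at least 1 group. Kcnq1ot1 was the lowest, at 0.783 ± 0.199 FPKM in AVE0991 and 1.08 ± 0.245 FPKM in vehicle libraries, below every other member in every library. The median tested long non-coding gene stood at 0.388 FPKM, so all 10 were above it.

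**Figure D2:**
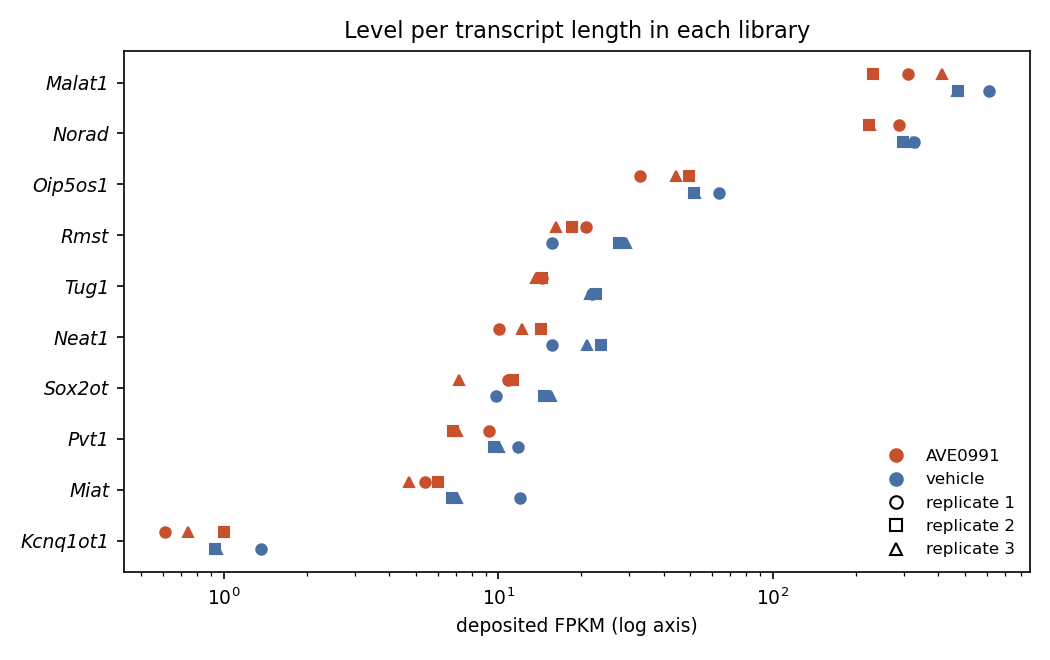
Deposited FPKM (horizontal log axis) of each member in every library, AVE0991 above vehicle within each row. Malat1 and Norad lie above 200 FPKM in all 6 libraries and Kcnq1ot1 at 0.61 to 1.36 FPKM.

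The RNAs of nuclear bodies come first. Malat1, a component of nuclear speckles, and Neat1, the scaffold on which paraspeckles form, lie side by side in the genome. Malat1 and the long form of Neat1 are cut at their 3′ ends by RNase P instead of being polyadenylated, and U-rich motifs fold back on an A-rich tract there to form a stabilising triple helix. The stretches holding these elements are shown because they set the ends of both RNAs. They are in DNA letters of the longest GENCODE M21 transcript (GRCm38), bases 6586 to 6705 of Malat1 and 20662 to 20771 of Neat1, and capitals mark U-rich motif 1, U-rich motif 2 and, after them, the longest run of A in the Malat1 stretch and the runs of at least 4 A in the Neat1 stretch.
Malat1: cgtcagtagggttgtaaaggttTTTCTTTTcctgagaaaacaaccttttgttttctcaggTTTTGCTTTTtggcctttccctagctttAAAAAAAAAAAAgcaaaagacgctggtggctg
Neat1: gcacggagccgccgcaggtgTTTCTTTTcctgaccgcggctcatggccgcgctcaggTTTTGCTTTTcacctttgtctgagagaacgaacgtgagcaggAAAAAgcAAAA
U-rich motif 2, searched on the transcript strand, was found in 3 members, the third being Kcnq1ot1, and in 2.72% of the longest transcripts of tested genes, which differ in length.

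Malat1 measured 1676, 1371 and 2375 CPM in AVE0991 replicates 1, 2 and 3, against 3559.8, 2498 and 2640.1 CPM in vehicle replicates 1, 2 and 3. The groups did not overlap, but AVE0991 replicate 3 was close to vehicle replicate 2. The log2 fold change was -0.68 (SE 0.24, edgeR adjusted p = 0.159), which did not pass. Malat1 took 0.131% to 0.226% of all gene counts in AVE0991 libraries and 0.261% to 0.362% in vehicle libraries. Neat1 had 41.9, 63.2 and 51.3 CPM after AVE0991, against 67.8, 89.4 and 83.4 CPM after vehicle. Its highest AVE0991 library lay just under its lowest vehicle library. The log2 fold change of Neat1 was -0.62 (SE 0.18, edgeR adjusted p = 0.122).

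Miat, also called Gomafu, is a nuclear RNA of neurons that binds splicing regulators, among them Qk and Sf1. It measured 33.2, 34.7 and 29.2 CPM after AVE0991, against 80.9, 41.7 and 43.1 CPM after vehicle. All AVE0991 libraries were below all vehicle libraries, and vehicle replicate 1 stood far above the other two. The estimate for Miat was -0.77 on the log2 scale (SE 0.27, edgeR adjusted p = 0.157), which was -0.37 without vehicle replicate 1. That library also had the highest sum of neuronal markers, 3727 CPM, and the lowest of oligodendrocyte markers, 3609 CPM. Of the neuronal markers only Syt1 (1021 CPM) and Slc17a7 (1124 CPM) were highest there, and Gad1 (250 CPM) was lowest there. AVE0991 replicate 3 had the next highest neuronal sum, 3332 CPM, and the lowest Miat level, 29.2 CPM. The part of these cell types in the level of Miat was not tested.

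The proteins of these bodies were measured as well. Of 10 paraspeckle proteins 0 were called by edgeR, and their median log2 fold change was 0.04. The member with the smallest p, Nono, a core paraspeckle protein, averaged 109 ± 5.38 CPM in AVE0991 and 91.7 ± 2.80 CPM in vehicle libraries (log2 fold change 0.25, edgeR adjusted p = 0.165), and Tardbp, an RNA-binding protein also known as TDP-43, stood at -0.32 (edgeR adjusted p = 0.180). Of 6 nuclear speckle proteins 0 were called, with a median of 0.04; Srsf3 stood at -0.38 (edgeR adjusted p = 0.111) and Srsf1 at -0.21. Of the 3 Miat partners 0 were called, with Sf1 at 0.24 and Qk at -0.35. Of 6 genes that process or modify Malat1 and other nuclear RNAs 0 were called, with a median of 0.11. Elac2, which trims the 3′ end of the small tRNA-like product of Malat1, stood at 0.18 and the methyltransferase Mettl3 at 0.24.

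Kcnq1ot1 and Tug1 are RNAs known for acts on chromatin. Kcnq1ot1 is a very long transcript made from the paternal allele, antisense to the potassium channel gene Kcnq1, and it silences imprinted genes around it. Its promoter is unmethylated on that allele, and CCAAT boxes in it are known to bind NF-Y. The 300-base RefSeq window around its start (GRCm38.p6, chr7:143296498-143296797, minus strand, printed 5′ to 3′ along the transcript) is shown because Kcnq1ot1 had the most negative estimate of the members, with CCAAT in capitals.
Kcnq1ot1 promoter: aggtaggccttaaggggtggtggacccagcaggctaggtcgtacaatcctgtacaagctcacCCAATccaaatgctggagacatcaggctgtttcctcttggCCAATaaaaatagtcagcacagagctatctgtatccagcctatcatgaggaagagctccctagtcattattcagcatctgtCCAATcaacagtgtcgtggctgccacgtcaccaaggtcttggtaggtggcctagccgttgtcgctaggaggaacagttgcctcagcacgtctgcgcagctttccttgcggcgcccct
This window held CCAAT 3 times, counting both strands; 3.37% of 32851 windows of the same length held 3 or more and 37.4% held at least 1. Windows were at hand for 5 members. That of Oip5os1 held 2 CCAAT and those of Tug1, Miat and Malat1 held 0.

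Kcnq1ot1 had 20, 26.8 and 24.7 CPM after AVE0991, against 74.3, 36.5 and 46.6 CPM after vehicle. The groups were separate, and vehicle replicate 1 was the highest by far. Its log2 fold change was -1.14 (SE 0.27, edgeR adjusted p = 0.097), a 2.20-fold lower estimate that did not pass; without vehicle replicate 1 it was -0.78. On the FPKM scale the groups overlapped, at 0.61, 1.00 and 0.74 FPKM in AVE0991 libraries against 1.36, 0.93 and 0.94 FPKM in vehicle libraries, and the log2 ratio of the means was -0.46. The transcript length implied by dividing the deposited counts by the FPKM was 25681 to 32902 bases in AVE0991 libraries and 40914 to 55584 bases in vehicle libraries, so the division by length offset part of the difference in counts. The longest reference transcript has 93092 bases.

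Of 10 genes of the Kcnq1 imprinted domain 8 could be tested, and edgeR called 0 of them in either direction, with a median log2 fold change of 0.21. Kcnq1 itself was low, at 0.368 ± 0.121 CPM in AVE0991 and 0.312 ± 0.0699 CPM in vehicle libraries. Cdkn1c, a cell cycle inhibitor that Kcnq1ot1 is known to silence, averaged 7.43 ± 0.578 CPM in AVE0991 and 8.69 ± 2.26 CPM in vehicle libraries (log2 fold change -0.23, edgeR adjusted p = 0.526). Cd81, a tetraspanin, stood at 508 ± 82.2 CPM in AVE0991 and 382 ± 50 CPM in vehicle libraries (log2 fold change 0.41, edgeR adjusted p = 0.192), and Tssc4 at a log2 fold change of 0.35 (edgeR adjusted p = 0.197). The library preparation marked strand, but the sources used here do not say whether the counting used it. If it did not, reads of Kcnq1ot1 and of Kcnq1 cannot be told apart where the genes overlap; Sox2ot and Sox2 also overlap, on the same strand.

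Tug1 is an RNA of nucleus and cytoplasm, first found as needed for the developing retina, that is known to bind Polycomb proteins. It had the smallest spread relative to its mean of the 10 members in both groups, and it was the member called lower. It measured 64.7, 64.8 and 62.2 CPM after AVE0991, against 98.2, 101 and 99.3 CPM after vehicle. Within each group the libraries lay within a few CPM of each other, and the groups were far apart. For Tug1 the log2 fold change was -0.64 (SE 0.08, edgeR adjusted p = 0.0414), a 1.56-fold decrease seen in 3 of 3 AVE0991 libraries. The call was lost when any library except AVE0991 replicate 1 was left out, with edgeR adjusted p of 0.0973 to 0.227 and log2 fold changes of -0.65 to -0.62. With a per-library correction for GC content the difference was 0.01 on the log2 scale and did not pass.

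Tug1 starts in a GC-rich promoter but is itself AT-rich. Its 300-base RefSeq window (GRCm38.p6, chr11:3648765-3649064, minus strand, printed along the transcript) is shown for that contrast, with CG dinucleotides in capitals.
Tug1 promoter: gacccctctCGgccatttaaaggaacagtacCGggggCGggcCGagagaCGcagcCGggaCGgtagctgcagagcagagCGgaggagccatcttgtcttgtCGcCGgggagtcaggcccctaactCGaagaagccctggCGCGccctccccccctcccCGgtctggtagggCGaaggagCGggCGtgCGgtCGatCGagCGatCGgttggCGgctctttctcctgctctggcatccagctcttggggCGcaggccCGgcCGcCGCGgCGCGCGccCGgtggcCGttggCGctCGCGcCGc
The window had a GC content of 71.3% and 37 CG dinucleotides, against medians of 52.7% and 7 over all windows, while the longest Tug1 transcript, of 6719 bases, had 37.9% GC. Of 7 subunits of Polycomb repressive complex 2, 0 were called by edgeR, with a median of 0.13; Suz12 stood at -0.38 (edgeR adjusted p = 0.174) and Ezh1 at 0.24. Morc2a, the gene beside Tug1 that starts on the opposite strand, averaged 42.4 ± 2.33 CPM in AVE0991 and 40.3 ± 1.11 CPM in vehicle libraries (log2 fold change 0.07, edgeR adjusted p = 0.648).

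Norad and Oip5os1 act mostly in the cytoplasm. Norad holds the Pumilio proteins through many copies of their binding element. The pair of elements that lie closest together, bases 2422 to 2478 of its GENCODE M21 transcript, is shown as an example, with the elements, TGTANATA in DNA letters, in capitals.
Norad: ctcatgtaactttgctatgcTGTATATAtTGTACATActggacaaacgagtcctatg
TGTANATA, searched on the transcript strand, occurred 11 times in the 4915 bases of Norad, or 2.24 per kilobase, against 0 to 1.15 per kilobase in the other members. Of 12920 reference transcripts of at least 2000 bases, 2 had that density or more, Norad included. Norad had 1398, 1144 and 1149.9 CPM after AVE0991, against 1562, 1387 and 1514 CPM after vehicle. AVE0991 replicate 1 lay within the vehicle range. The log2 fold change was -0.27 (SE 0.13, edgeR adjusted p = 0.248), which did not pass. Of 5 Pumilio and Norad partners 0 were called; Pum2 averaged 154 ± 14.9 CPM in AVE0991 and 207 ± 14.6 CPM in vehicle libraries (log2 fold change -0.43, edgeR adjusted p = 0.112), and the topoisomerase Top1 stood at -0.23.

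Oip5os1, also called Cyrano, carries a nearly complete match to the microRNA miR-7 and is known to bring about its decay. The site, bases 2933 to 2959 of the longest GENCODE M21 transcript, is set beside the mature mouse miR-7a-5p of RefSeq (GRCm38.p6), both 5′ to 3′. Capitals mark the bases of the site complementary to the microRNA, and in miR-7a-5p the seed, bases 2 to 8.
Oip5os1 site: gaACAACAAAATCACcaatGTCTTCCA
miR-7a-5p: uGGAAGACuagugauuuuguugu
The site pairs over 8 bases at the 5′ end of the microRNA and 13 bases at its 3′ end, with 4 unpaired bases of the site between. Among 16929 reference transcripts searched, 1 held both matches with at most 8 bases between them, that of Oip5os1. The lengths searched for were taken from the Oip5os1 site itself, so its own match was fixed in advance. The level of miR-7 was not analysed here. Oip5os1 measured 137, 246 and 206 CPM after AVE0991, against 278, 223 and 233 CPM after vehicle. The groups overlapped, and AVE0991 replicate 1 was the lowest of all 6. The estimate for Oip5os1 was -0.32 on the log2 scale (SE 0.22, edgeR adjusted p = 0.415), and it was -0.11 without AVE0991 replicate 1, -0.51 without AVE0991 replicate 2 and -0.20 without vehicle replicate 1. Of 7 genes of the microRNA decay machinery 0 were called, with a median of 0.01; Eloc stood at -0.46 (edgeR adjusted p = 0.107) and Cul3, the scaffold of a ubiquitin ligase, at -0.42 (edgeR adjusted p = 0.131).

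Sox2ot, Rmst and Pvt1 are linked to genes of cell identity and growth. Sox2ot spans the gene of the stem cell factor Sox2. Rmst is known, in human neural progenitors, to bind SOX2 at neuronal genes, and Pvt1 lies beside Myc, whose transcription its promoter is known to restrain. Pvt1 had 15.5, 15.5 and 14.1 CPM after AVE0991, against 26.3, 21 and 21.4 CPM after vehicle. The groups were separate, with little spread among AVE0991 libraries. The log2 fold change was -0.61 (SE 0.12, edgeR adjusted p = 0.0705). Without AVE0991 replicate 1 Pvt1 passed, at -0.63 (edgeR adjusted p = 0.0376), in a fit that called 1386 genes higher and 995 lower over all genes. Summed cerebellar granule cell markers were 157 CPM in that library, against 1103 and 1120 CPM in AVE0991 replicates 2 and 3. In vehicle libraries they were 153 to 181 CPM. The groups of that fit therefore also differ in these markers, whose part was not tested. With any other single library left out Pvt1 did not pass, at edgeR adjusted p of 0.144 to 0.233. Myc averaged 3.94 ± 0.132 CPM in AVE0991 and 3.73 ± 0.447 CPM in vehicle libraries (log2 fold change 0.08, edgeR adjusted p = 0.805), and Gsdmc, on the other side of Pvt1, was at 0 counts in every library.

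Sox2ot had 17.9, 20.2 and 12.2 CPM after AVE0991, against 19.4, 27.6 and 31.2 CPM after vehicle, and the groups overlapped at vehicle replicate 1. Its estimate on the log2 scale was -0.64 (SE 0.24, edgeR adjusted p = 0.181). Rmst had 35.8, 36.1 and 28.1 CPM after AVE0991, against 26.6, 46.2 and 54.1 CPM after vehicle. Vehicle replicate 1 was the lowest library of all, under every AVE0991 library. For Rmst the log2 fold change was -0.34 (SE 0.26, edgeR adjusted p = 0.457), and it was -0.57 without vehicle replicate 1 and -0.13 without vehicle replicate 3. Sox2 averaged 41.7 ± 7.59 CPM in AVE0991 and 47.8 ± 3.88 CPM in vehicle libraries (log2 fold change -0.20, edgeR adjusted p = 0.462). Of 7 genes in the list of Sox2 and Rmst partners 0 were called; Hnrnpa2b1, an RNA-binding protein that also binds human RMST, stood at -0.16.

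Within each group Sox2ot, Rmst and Neat1 ran low or high in some of the same libraries as the oligodendrocyte markers. The summed oligodendrocyte markers were 5470.1, 11782 and 5851 CPM in AVE0991 replicates 1, 2 and 3, against 3609, 7773 and 7876 CPM in vehicle replicates 1, 2 and 3. Vehicle replicate 1 was the lowest vehicle library for these markers and for all 3 RNAs, and AVE0991 replicate 2 was the highest AVE0991 library for these markers and for all 3 RNAs. Between the groups the order differed: 0 of 6 markers were called and their median on the log2 scale was 0.09, while Sox2ot stood at -0.64, Rmst at -0.34 and Neat1 at -0.62. For Rmst, AVE0991 replicate 2 exceeded AVE0991 replicate 1 by little, at 36.1 and 35.8 CPM. The same libraries were lowest and highest for Tug1, by a few CPM, and for the summed endothelial and choroid plexus markers, so this order was not particular to oligodendrocyte markers. The 3 RNAs were picked for it after their values were seen, and the part of any of these cell types in their levels was not tested.

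**Figure D3:**
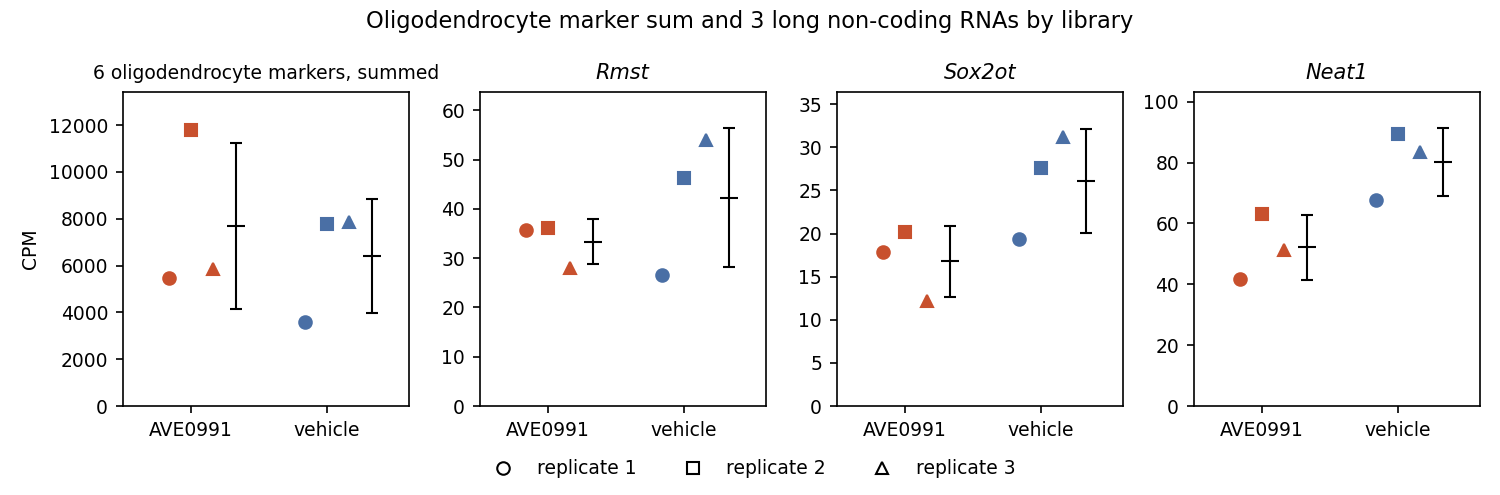
Summed CPM of 6 oligodendrocyte markers and CPM of Rmst, Sox2ot and Neat1 in the 3 AVE0991 and 3 vehicle libraries, with mean ± SD in black; all axes start at 0. Vehicle replicate 1 (circle) is the lowest vehicle library and AVE0991 replicate 2 (square) the highest AVE0991 library in each of the 4 panels.

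The nearest named protein-coding genes on each side of the members, with genes that overlap them, made 20 genes, of which 18 were tested and 0 were called by edgeR. Their median log2 fold change was -0.04. Next to the Malat1 and Neat1 pair lies Frmd8, at -0.04. Beside Tug1, besides Morc2a, lies Smtn, at -0.04; beside Miat lie Mn1, at -0.32, and Cryba4, at 0.41; beside Norad lie Cnbd2, at -0.04, and Epb41l1, at 0.32. Beside Sox2ot lie Dnajc19, at -0.34, and Atp11b, a lipid flippase subunit, which averaged 18.7 ± 3.12 CPM in AVE0991 and 29.3 ± 4.92 CPM in vehicle libraries (log2 fold change -0.65, edgeR adjusted p = 0.113). Beside Rmst lie Tmpo, at 0.16, and Nedd1, at -0.14, and beside Oip5os1 lie Chp1, at 0.02, and Oip5, at -0.42. Trpm5, beside Kcnq1ot1, was too low to test.

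Over all partner and neighbour genes, 73 of 76 were tested, with a median log2 fold change of 0.03 and 42.5% below 0. EdgeR called 0 of them, and 14 (19.2%) had an unadjusted p under 0.05, against 23.6% of all tested genes. Limma-voom called 0. DESeq2 called 6 (8.22%), against 11.4% of all tested genes: Srsf3, Pum2, Eloc and Atp11b lower, Sf1 and Zswim8 higher. Some of these names were chosen after their values were seen. Without AVE0991 replicate 1 edgeR called Sp8 lower and Tssc4 and Jarid2 higher, in a fit that called 995 genes lower and 1386 higher over all genes. These names were likewise taken after their values were seen. With all libraries none of them was called, and the log2 fold change was 0.15 for Sp8, 0.35 for Tssc4 and 0.34 for Jarid2. Sp8 measured 11.3, 1.11 and 0.999 CPM in AVE0991 replicates 1, 2 and 3, against 4.41, 4.87 and 2.79 CPM in vehicle replicates 1, 2 and 3. The direction for Sp8 thus rested on AVE0991 replicate 1.

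A feature shared by the members was a low GC content. The longest transcripts of 9 of the 10 lay under the median GC content of tested genes, 49.8%, the exception being Miat at 55.1%. Across all tested genes the difference between groups moved with GC content: the median log2 fold change was -0.65 for 273 genes of 36 to 38% GC, -0.25 for 1394 genes of 42 to 44% and 0.18 for 1615 genes of 54 to 56%. Tug1, at 37.9% GC, Rmst, at 41.6%, and Oip5os1, at 39.9%, stood within 0.12 of the median of tested genes within 2 percentage points of their GC content, with differences from it of -0.10, -0.01 and 0.12 on the log2 scale. The difference from that median was -0.95 for Miat, -0.73 for Kcnq1ot1, -0.59 for Neat1 and -0.53 for Pvt1.

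With a per-library correction for GC content, the log2 fold change of Tug1 was 0.01 (SE 0.10, edgeR adjusted p = 0.977), that of Rmst 0.06 and that of Oip5os1 0.21. Miat stood at -0.88 (SE 0.27, edgeR adjusted p = 0.224), Kcnq1ot1 at -0.63 (SE 0.23, adjusted p = 0.256), Neat1 at -0.53 (SE 0.18, adjusted p = 0.235) and Pvt1 at -0.46 (SE 0.12, adjusted p = 0.206). Malat1 stood at -0.33, Sox2ot at -0.34 and Norad at -0.11. EdgeR called 0 members after the correction, and 0.00491% of all tested genes in either direction, with 4 at an unadjusted p under 0.05 (Miat, Kcnq1ot1, Neat1 and Pvt1), as had 17.0% of all tested genes. Of the 10 estimates 7 were below 0, with a median of -0.33. The correction takes out of each library whatever moves with GC content, and the source of the trend was not tested. The reference transcript need not be the form that was counted.

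**Figure D4:**
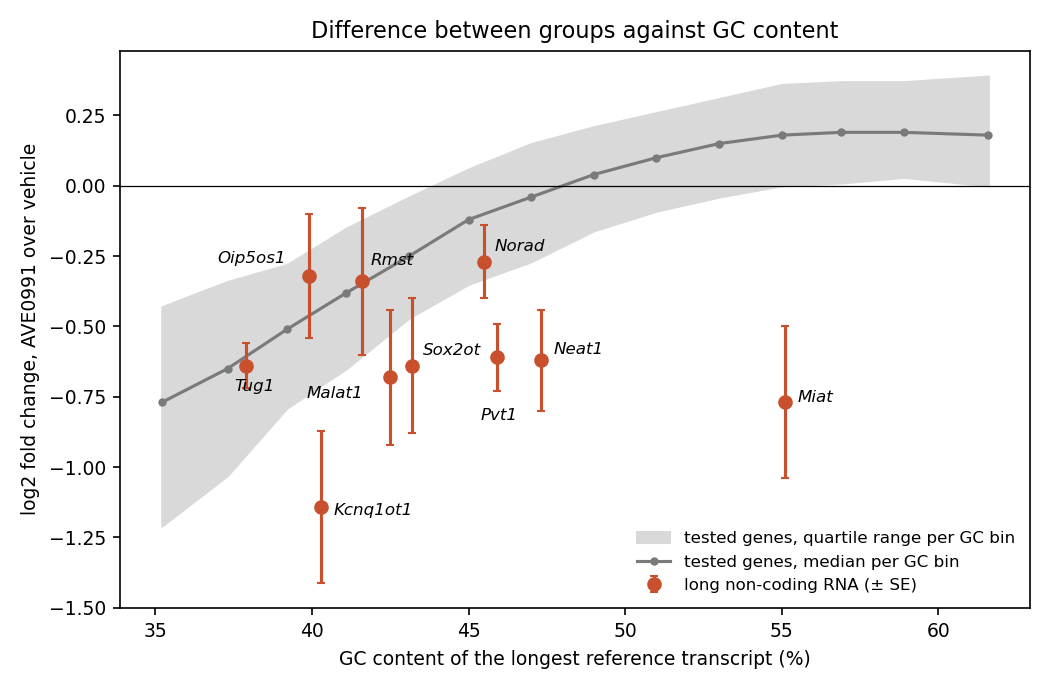
Log2 fold change (vertical axis) against GC content of the longest reference transcript (horizontal axis). Points are the 10 members ± SE, the line joins the medians of all tested genes per GC bin and the band their quartiles; Tug1, Rmst and Oip5os1 lie near the line, and Miat at 55.1% GC farthest below it.

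**Figure D5:**
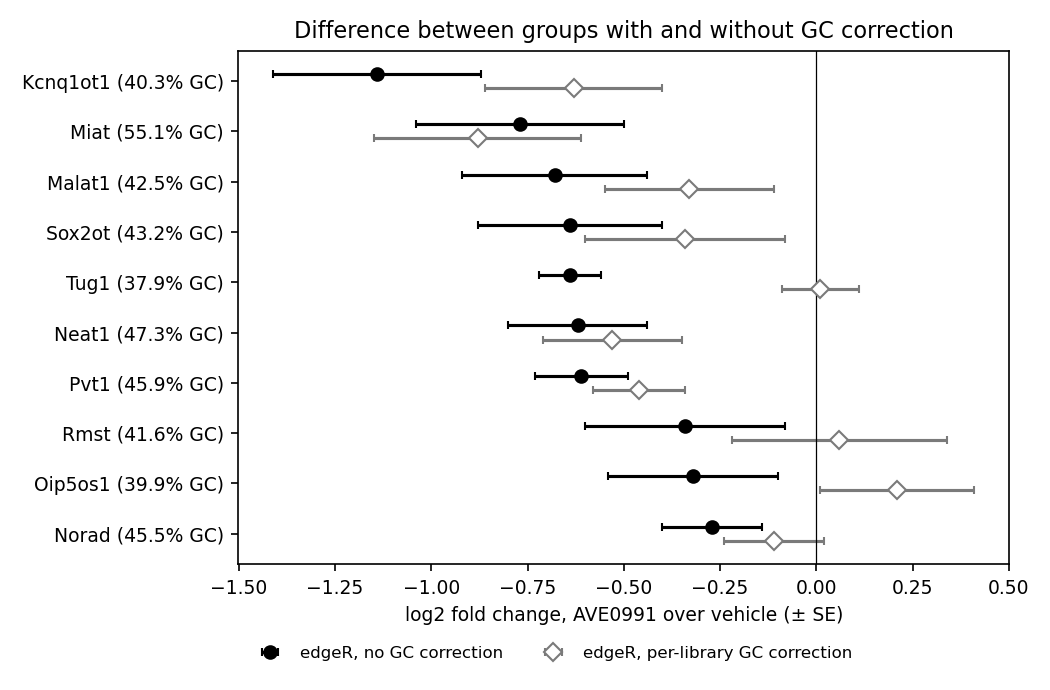
Log2 fold change ± SE of each member without (filled) and with (open) the per-library GC correction, AVE0991 over vehicle. Tug1 goes to 0.01 and Miat to -0.88 with the correction.

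The transcript length implied by the deposited counts and FPKM was set side by side for the other members. For Norad it was 4867 to 4873 bases in AVE0991 and 4867 to 4886 bases in vehicle libraries, close to its reference transcript of 4915 bases. For Sox2ot it was 1617 to 1709 bases in AVE0991 and 1961 to 2058 bases in vehicle libraries, with no overlap and a ratio of group means of 0.827. The ranges were also separate for Pvt1 (ratio 0.854), Miat (0.895) and Tug1 (0.941), and they overlapped for Neat1 (0.998), Oip5os1 (0.988), Rmst (0.969) and Malat1 (0.961). Implied lengths were computed for the members only, so no share of all genes stands beside these separate ranges. Whether they are particular to the members was not tested. The sources used here do not say which transcript forms were counted, and the differences in implied length were not tested.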

How the data were processed

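RNA-seq of 3 AVE0991 and 3 vehicle libraries was used. The authors deposited estimated counts per gene and values on an FPKM scale, which the file header does not name as such and which were identified from the values. Reads were aligned with HISAT to mm9, per the submitters' processing notes; the sources used here do not name the counting program, annotation or strand setting. The authors' deposited table of log2 fold changes, p-values and q-values was made with DESeq2, per the file headers.

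Estimated counts of gene rows were rounded, filtered with filterByExpr and tested with edgeR 4.0.16 (R 4.3.3; TMM, robust quasi-likelihood test), with Benjamini-Hochberg adjustment over all 20363 genes tested and a threshold of 0.05. CPM use TMM library sizes. Totals were 44583274 to 50066615 counts per library. Library pairs differed beyond counting noise (smallest chi-square per gene 16.4). The script was checked on simulated counts. DESeq2 1.42.0, limma 3.58.1 (log2 of FPKM plus 0.1, and voom), other filters, corrections for GC content and length (16936 genes with a value, 83.2%) and leaving out libraries were alternatives. GC content, length and motifs came from the longest GENCODE M21 transcript (GRCm38), and promoters and microRNA from RefSeq (GRCm38.p6). No coordinates of the deposited build are given.

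Named were all 10 members, in each partner list the genes called and up to 2 with the smallest p, and the nearest named protein-coding genes. A gene that this rule names is not reported here. Members and lists were chosen with earlier results of these data known.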

Additional observations from a re-analysis of the deposited data

How the results depend on the processing

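All 10 members kept a lower estimate in AVE0991 libraries under 15 of 17 alternatives. The exceptions were the GC correction (Tug1 0.01, Rmst 0.06, Oip5os1 0.21) and the replicate block with GC correction (Tug1 0.01, Rmst 0.12, Oip5os1 0.17). Members called lower were 4 by DESeq2, 3 by limma-voom and 0 with circular RNA rows in the fit, the GC correction, the length correction, the replicate block, and the block with GC correction. Leaving out 1 library gave 0 to 2. The members' median was -0.45 on FPKM, -0.33 with the GC correction and -0.34 with the block and GC correction; leaving out 1 library gave -0.64 to -0.53. With the length correction Neat1 stood at -0.39 (-0.62 without it) and Kcnq1ot1 at -0.72 (-1.14 without it), neither called. The Tug1 adjusted p was 0.0414 in edgeR, 0.0526 with circular RNA rows, 0.0505 with the length correction and 0.125 with the replicate block. The cause was not tested.

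Over all genes, 7 were called higher and 169 lower by edgeR (4796 at an unadjusted p under 0.05). DESeq2 called 994 and 1324, limma-voom 525 and 770, edgeR with no filter 58 and 379, and edgeR on genes averaging 1 CPM or more 18 and 328. FPKM gave 287 lower and the length correction 98 lower. With circular RNA rows there was 1 in each direction, and with the GC correction 1 higher and 0 lower (3465 unadjusted). The replicate block gave 0 and 0 (3937 unadjusted), and the block with GC correction 0 and 0 (2820 unadjusted). Leaving out 1 library gave 0 to 1386 higher and 0 to 995 lower. The highest counts came without AVE0991 replicate 1, the AVE0991 library with the lowest sum of cerebellar granule cell markers. Without that library the groups also differ in these markers, whose part was not tested. Each other omission gave 0, where 3205 to 3818 genes had an unadjusted p under 0.05. Partner and neighbour genes numbered 4 lower and 2 higher by DESeq2, and 0 to 1 lower and 0 to 2 higher when 1 library was left out.

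Deviations of same-numbered libraries correlated at -0.021, 0.092 and -0.353, so the numbers were not taken to pair the libraries. Circular RNA rows could not be tied to members by the deposited table, so the alternatives planned for them were not run. With 3 libraries a group and a biological coefficient of variation of 24.7%, edgeR called 1 of the 10 members, while DESeq2 on the same libraries called partner genes with log2 fold changes as small as 0.24.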
